A study of Danio rerio with 4 samples.

Results

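Neural crest cells (NCC) sorted from zebrafish embryos at 28 hours post fertilization (hpf) were compared with NCC sorted at 16 hpf by the miRNAs sequenced in each population. The members were taken by sorted population and stage as labelled, and were the 2 NCC libraries among the 4 small RNA libraries of the study. Both NCC populations were GFP-positive cells of embryos carrying Tg(sox10:eGFP,mRFP), with no treatment named, in which the sox10 promoter drives eGFP and mRFP. At 28 hpf the crest has migrated and its derivatives are forming, whereas 16 hpf precedes migration, and the comparison addresses how the miRNA content of the sorted crest differs between these stages. The other 2 libraries held GFP-negative cells (non-NCC) of the same line at 28 and 16 hpf and were used to show where a difference between stages was particular to the sorted crest. Each population and stage is 1 library, and the number of embryos pooled in a sort is not given in the sources used here. The sox10 promoter is also known to be active in the otic epithelium and in oligodendrocyte precursors, so GFP marks the activity of the promoter and not a single cell type. In sorted populations such as these, fewer cells of a type and less RNA per cell cannot be told apart. The tables hold miRNAs alone, so the sort was not checked here against crest mRNAs such as sox10 or foxd3.

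The neural crest arises at the border of the neural plate, leaves the dorsal neural tube through an epithelial-to-mesenchymal transition and forms peripheral neurons, glia, pigment cells and craniofacial cartilage. MiRNAs are short RNAs cut from the 5p or the 3p arm of a hairpin precursor, and they lower the stability and translation of mRNAs that pair with their seed. In the early zebrafish embryo the miR-430 family is made in very large amounts at the onset of zygotic transcription and clears maternal mRNAs, and tissue-specific miRNAs accumulate later.

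The libraries differed greatly in depth, which set what could be seen. Whole reads recovered from the deposited normalized counts summed to 6502 in NCC at 28 hpf and to 2340716 in NCC at 16 hpf, and to 1099312 and 140132389 in non-NCC at 28 and 16 hpf. The NCC library of 16 hpf had 360 times the reads of the NCC library of 28 hpf, and 106 times its reads outside the miR-430 family, with 1768 reads at 28 hpf and 187650 reads at 16 hpf. The normalized values of the 2 stages came from separate tables, so each miRNA was taken as its share of the reads of its own library. Shares are of reads outside the miR-430 family unless the text says otherwise. With miR-430 kept in the total, every fold of 28 hpf over 16 hpf is multiplied by 3.39, a shift of 1.76 on the log2 scale, because miR-430 took less of the later library. Scaling by TMM or by the median of ratios shifted the log2 folds by -0.28 and -0.35. Intervals are exact 95% intervals on the split of reads between libraries. They describe 2 libraries, cover counting error only (the reads carry no molecular identifiers and so are not independent molecules) and carry no replicate check. A share of 0 at 28 hpf allows up to 3 reads, or 0.170% of the reads outside miR-430, while the same floor was 0.00160% at 16 hpf.

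A miRNA was called higher at 28 hpf when its share was over 2-fold that at 16 hpf with an interval above 1, and as lower when its share was under 0.5-fold with an interval below 1. Where a library had no read, the fold was bounded with 3 reads. Of 212 miRNAs outside miR-430 with a read in either NCC library, 15 were higher at 28 hpf (7.08%) and 7 were lower (3.3%). At an equal share only 27 of the 212 had at least 3 reads expected at 28 hpf, so most could not have been counted as lower. Over the whole library, 28 of 227 miRNAs were higher (12.3%) and 3 were lower (1.32%). All 15 higher miRNAs stayed higher with miR-430 in the total, and 2 of the 7 lower ones, miR-222a-3p and miR-21, stayed lower. The third lower miRNA of the whole library was miR-430a-3p. The 13 miRNAs that were higher only with miR-430 in the total were miR-10a-5p, miR-10b-5p, miR-10c-5p, miR-196a-5p, miR-25-3p, miR-92b-3p, miR-103, miR-133a-3p, miR-182-5p, miR-204-5p, miR-462, miR-722 and miR-735-5p. Some rested on very few reads: miR-722 had 1 read at 28 hpf and 4 at 16 hpf. MiR-103, miR-133a-3p and miR-462 had 2 reads each at 28 hpf.

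The most abundant miRNAs of the sorted crest changed places between the stages. The 6 most abundant at 28 hpf were miR-10b-5p, miR-181a-5p, miR-181b-5p, miR-10d-5p, miR-10a-5p and miR-205-5p, and together they held 77.8% of the reads at 28 hpf and 34.5% at 16 hpf. The 6 most abundant at 16 hpf were miR-21, miR-10b-5p, miR-92a-3p, miR-222a-3p, miR-10a-5p and miR-10c-5p, which held 43.7% of the reads at 28 hpf and 79.1% at 16 hpf. Both lists shared 2 miRNAs, miR-10b-5p and miR-10a-5p.

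**Figure D1:**
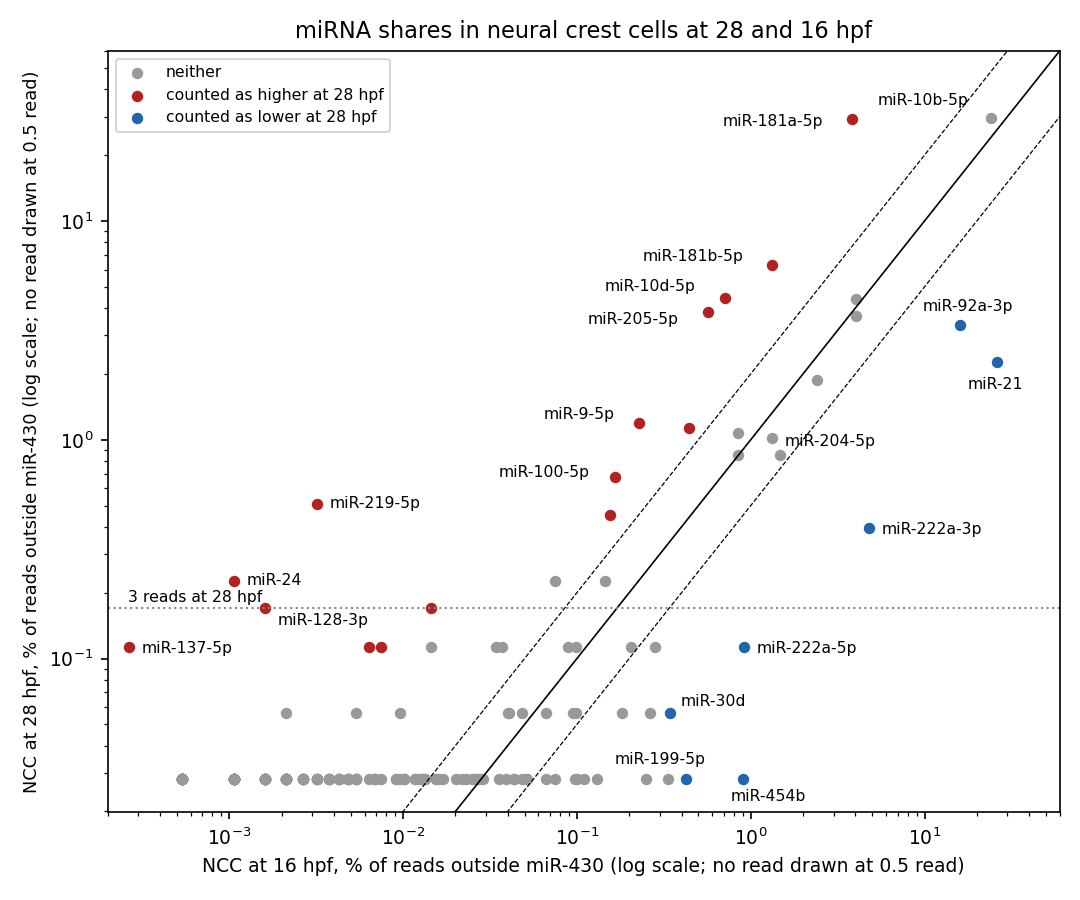
Share of each of 212 miRNAs in NCC at 28 hpf (vertical axis) against NCC at 16 hpf (horizontal axis), in % of reads outside miR-430 on log scales; points are single miRNAs, coloured by whether they were counted as higher or lower at 28 hpf, and a library without a read is drawn at 0.5 read. The solid line marks equal shares, the dashed lines 2-fold, and the dotted line 3 reads at 28 hpf; miR-181a-5p, miR-10d-5p and miR-205-5p lie above the lines, miR-21, miR-92a-3p and miR-222a-3p lie below them, and most rows at the bottom had no read at 28 hpf.

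The 28 hpf library held reads of 48 miRNAs outside miR-430, against 211 at 16 hpf. Of these 48, 25 rested on at most 3 reads and 12 on 1 read. Reads in both libraries were found for 47 miRNAs, whose median fold was 1.40 (0.48 on the log2 scale), with 31 above 1 and 16 below 1. A miRNA with less than 1 read expected at 28 hpf could be seen there only with a fold above 1, so this median describes the miRNAs that were seen and not the whole table. Among the 17 miRNAs with at least 10 reads at 28 hpf, 7 were higher, 2 were lower and 8 were neither.

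The miR-181 family, whose members are abundant in the vertebrate nervous system and in lymphocytes, took 36.0% of the reads at 28 hpf (636 reads) and 5.45% at 16 hpf (10232 reads), a fold of 6.60 (6.08 to 7.15). Of 7 members tested 3 were higher and none was lower, against 7.08% higher and 3.3% lower of all 212 miRNAs outside miR-430. The median log2 fold of the 5 members with reads in both libraries was 1.55, against 0.48 for all miRNAs. MiR-181a-5p, the mature 5p strand of 5 precursor genes, had 515 reads at 28 hpf (29.1%) and 7157 reads at 16 hpf (3.81%). Its fold was 7.64 (6.97 to 8.35), on more reads at 28 hpf than any other higher miRNA. MiR-181b-5p, made from 3 precursor genes that each lie within 10 kb of a miR-181a gene, had 111 reads (6.28%) at 28 hpf and 2492 reads (1.33%) at 16 hpf, a fold of 4.73 (3.87 to 5.72). The passenger strand miR-181a-2-3p had 8 reads at 28 hpf and 290 at 16 hpf, a fold of 2.93 (1.25 to 5.85). It was no longer counted under the median of ratios, a 4-fold limit or a 99% interval. The passenger strand miR-181a-3p had no read at 28 hpf and 124 at 16 hpf, and miR-181c-5p had 1 and 91 reads, too few to give a direction.

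The same family was also higher outside the crest. In non-NCC the miR-181 rows took 29.2% at 28 hpf and 4.84% at 16 hpf, a fold of 6.03, and the NCC fold over the non-NCC fold was 1.09 (1.01 to 1.19). For miR-181b-5p this ratio was 1.15 (0.941 to 1.39) and for miR-181a-2-3p 1.60 (0.682 to 3.22), so the counting error of either includes an equal stage difference in both populations. For miR-181a-5p the ratio was 1.12 (1.03 to 1.23).

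The miR-10 and miR-196 miRNAs lie within the Hox clusters and are known to be expressed along the trunk together with neighbouring Hox genes. As a group they held 42.6% of the reads at 28 hpf (753 reads) and 33.1% at 16 hpf (62205 reads), a fold of 1.28 (1.19 to 1.38). Of 12 members tested 1 was higher, near the 7.08% of all miRNAs outside miR-430. The member that rose was miR-10d-5p, with 79 reads (4.47%) at 28 hpf and 1335 reads (0.711%) at 16 hpf. Its fold was 6.28 (4.94 to 7.88) in NCC and 2.05 in non-NCC, and the ratio of both folds was 3.06 (2.41 to 3.85).

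MiR-10b-5p, the most abundant miRNA outside miR-430 at 28 hpf, did not pass 2-fold outside miR-430 and was counted as higher, at 4.19, with miR-430 in the total. It had 524 reads (29.6%) at 28 hpf and 45024 reads (24.0%) at 16 hpf, a fold of 1.24 (1.13 to 1.35) that was 0.971 under the median of ratios. MiR-10a-5p had 78 and 7603 reads, with a fold of 1.09 (0.860 to 1.36), and miR-10c-5p had 65 and 7524 reads, with a fold of 0.917 (0.707 to 1.17). With miR-430 in the total, miR-10a-5p and miR-10c-5p were counted as higher too, at 3.69 and 3.11. The miR-196 rows were sparse, with 4 reads of miR-196a-5p at 28 hpf and 141 at 16 hpf (fold 3.01, 0.809 to 7.88, and higher at 10.2 with miR-430 in the total), and 2 and 530 reads of miR-196b (fold 0.401, 0.0484 to 1.45). The 7 Hox members with reads in both libraries had a median log2 fold of 0.30. The passenger strand miR-10b-3p, with 1 read at 28 hpf and 18 at 16 hpf, had a fold of 5.90 (0.142 to 37.3), and its interval and that of miR-196a-5p both include the fold of miR-10d-5p. In non-NCC the Hox group had a fold of 0.692, and the ratio of the NCC fold to the non-NCC fold was 1.86 (1.73 to 2.0).

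MiR-205-5p, an epithelial miRNA that in mammalian cells represses the transition factors ZEB1 and ZEB2 together with the miR-200 family, was higher at 28 hpf in NCC. It had 68 reads (3.85%) at 28 hpf and 1071 reads (0.571%) at 16 hpf, a fold of 6.74 (5.19 to 8.62). Outside the crest it had 1407 reads (0.384%) at 28 hpf and 63931 reads (0.552%) at 16 hpf, a fold of 0.695. The ratio of both folds was 9.69 (7.43 to 12.5), the sharpest difference between crest and non-crest among the higher miRNAs with at least 10 reads in each library. The annotation lists a single precursor gene for it. The rest of the epithelial list was too sparse to show whether it moved with miR-205-5p. The list as a whole had 69 reads at 28 hpf and 1142 at 16 hpf (fold 6.41, 4.95 to 8.18). Of 10 members tested 1 was higher, near the 7.08% of all miRNAs outside miR-430. Without miR-205-5p the fold was 1.49 (0.0373 to 8.60) on 1 read of miR-200a-3p. MiR-429a and miR-200a-5p had no read at 28 hpf and 19 and 17 reads at 16 hpf, which is too few for a loss to be seen.

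Of 21 neuronal and glial miRNAs tested, 4 were higher and none was lower, against 7.08% higher and 3.3% lower of all 212 miRNAs outside miR-430. No member had enough reads at 16 hpf to be counted as lower at this depth, so the absence of lower members is not informative. The list took 1.98% of the reads at 28 hpf (35 reads) and 0.298% at 16 hpf (560 reads), a fold of 6.63 (4.57 to 9.34), and its fold in non-NCC was 2.09. All 35 reads were of miR-9-5p, miR-219-5p, miR-128-3p and miR-137-5p. The NCC counts of each were whole multiples of its number of precursor genes, and the interval takes every count as a separate read. MiR-9-5p, known in zebrafish from neural progenitors on either side of the midbrain-hindbrain boundary, had 21 reads (1.19%) at 28 hpf and 427 reads (0.228%) at 16 hpf, a fold of 5.22 (3.20 to 8.08), and its ratio over the non-NCC fold of 2.56 was 2.04 (1.25 to 3.17). Both NCC counts of miR-9-5p were whole multiples of its 7 precursor genes. Divided by 7, they became 3 and 61 reads, and the interval of the fold then included 1 (0.943 to 14.4).

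MiR-219-5p, a miRNA known to promote oligodendrocyte differentiation in mouse and zebrafish, had 9 reads (0.509%) at 28 hpf and 6 reads (0.00320%) at 16 hpf. More reads were thus found at 28 hpf, where the reads outside miR-430 were 106 times fewer, and the fold was 159 (50.6 to 544). Outside the crest it went the other way, with 180 reads (0.0491%) at 28 hpf and 15327 reads (0.132%) at 16 hpf, a fold of 0.371. All 4 counts were whole multiples of its 3 precursor genes. Divided by 3, the NCC counts were 3 and 2 reads, and the interval of the fold stayed above 1 (16.4 to 1716).

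MiR-128-3p and miR-137-5p, from hairpins whose miRNAs are enriched in brain in vertebrates, were counted as higher on as little as the rule allows. The other arm of the miR-137 hairpin, miR-137-3p, had no read in either NCC library. MiR-128-3p had 3 reads in each NCC library, and miR-137-5p had 2 reads at 28 hpf and none at 16 hpf, so both stood at or under the 3-read floor and no fold is given. Their counts at 28 hpf equal the number of their precursor genes, 3 and 2. The remaining 17 members tested were neither, and all of them were without a read at 28 hpf. MiR-124-3p, the classical marker of differentiated neurons, had no read at 28 hpf and 6 at 16 hpf. MiR-218a, found in motor neurons, had none and 47. MiR-138-5p had none and 14. None of these counts at 16 hpf reached 1 expected read at 28 hpf.

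MiR-100-5p and miR-125b-5p share genomic clusters with let-7a, in which both are transcribed together with it. In the annotation, the mir100-1 and mir100-2 genes each lie within 10 kb of a mir125b and a let-7a gene. MiR-100-5p had 12 reads (0.679%) at 28 hpf and 312 reads (0.166%) at 16 hpf in NCC, a fold of 4.08 (2.09 to 7.23), against a fold of 0.597 in non-NCC, and the ratio of both was 6.84 (3.47 to 12.2). MiR-125b-5p, which targets p53 in zebrafish, had 3 and 27 reads (fold 11.8, 2.29 to 38.3), and miR-125a had 2 and 12 reads (fold 17.7, 1.92 to 79.5). Both miR-125 miRNAs were also above 2-fold in non-NCC, at 5.85 and 15.9, and the intervals of their ratios included 1. Divided by their 3 and 2 precursor genes, of which their NCC counts were multiples, both were left with 1 read at 28 hpf and were no longer counted.

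The miR-99, miR-100 and miR-125 list summed to 17 reads at 28 hpf and 392 at 16 hpf, a fold of 4.60 (2.65 to 7.47). Of its 8 members 3 were higher, against 7.08% of all miRNAs outside miR-430. Their let-7 partners had no read at 28 hpf in any of 9 members, against 325 reads at 16 hpf. That sum would have given 3.06 reads at an equal share, and the interval of its fold, reaching up to 1.21, did not exclude an equal share.

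The remaining higher miRNAs shared no list. MiR-184, known from the lens and cornea, had 20 reads (1.13%) at 28 hpf and 824 reads (0.439%) at 16 hpf, a fold of 2.58 (1.57 to 4.0). In non-NCC its fold was 0.888, and the ratio of both folds was 2.90 (1.76 to 4.52). It was not counted at a 4-fold limit. MiR-24 had 4 reads at 28 hpf and 2 reads at 16 hpf, with a fold of 212 (30.4 to 2347), and in non-NCC it had no read at 28 hpf and 423 reads at 16 hpf. Its 4 reads equal its number of precursor genes, and each of those genes lies within 10 kb of miR-23 and miR-27 genes. No row of miR-23 or miR-27 had a read at 28 hpf, against 107 reads of the 10 other rows of this cluster list at 16 hpf, of which 82 were miR-27a-5p. The whole list, miR-24 included, would have given 1.03 reads at an equal share, so a loss of miR-23 or miR-27 could not be seen. MiR-30c-3p had 2 reads at 28 hpf and 14 at 16 hpf (fold 15.2, 1.67 to 66.0) and was lost with a 99% interval. The other arm, miR-30c-5p, more abundant at 16 hpf, had 1 and 178 reads (fold 0.596, 0.0150 to 3.37) and was not counted.

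**Figure D2:**
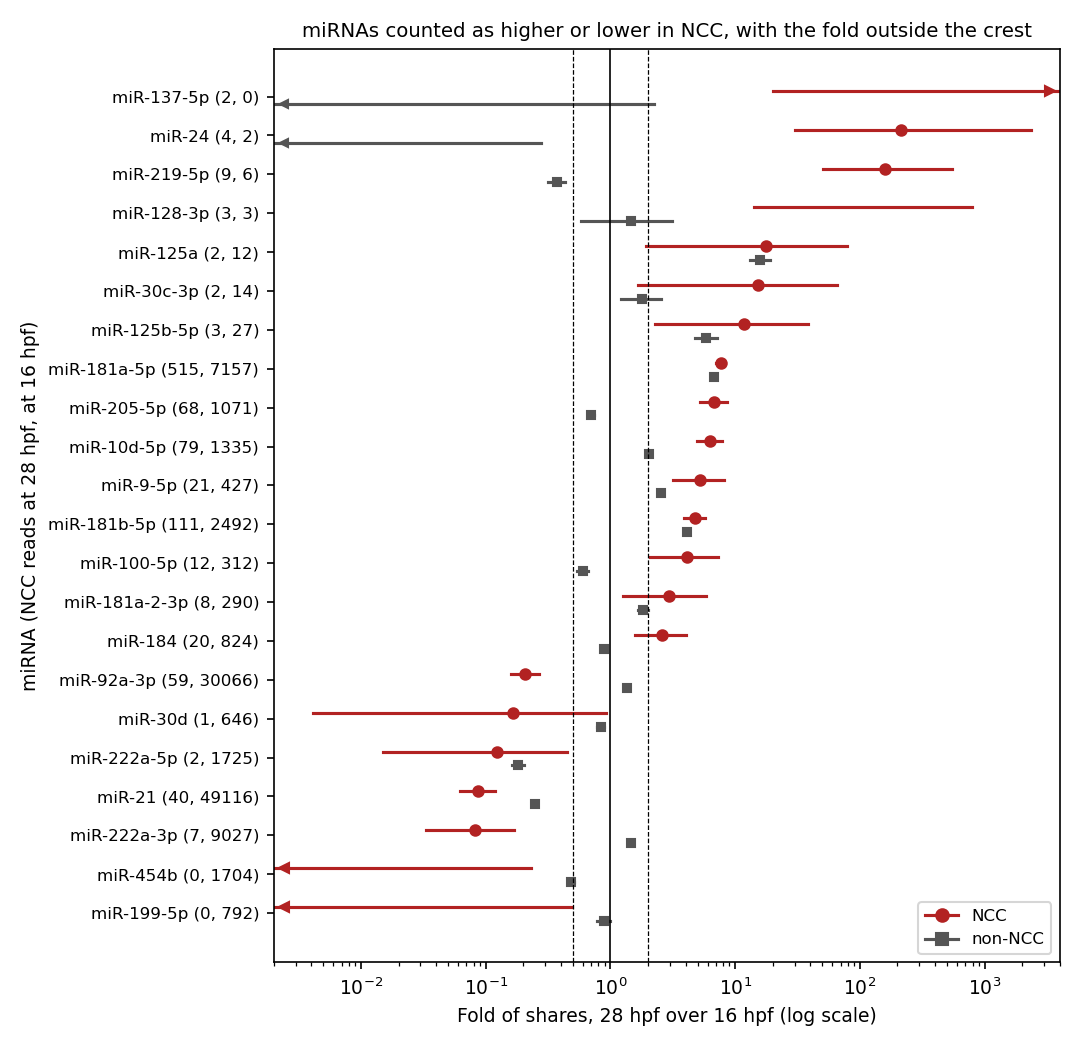
Fold of shares, 28 hpf over 16 hpf, on a log scale for the 22 miRNAs counted as higher or lower in NCC, with NCC as circles and non-NCC as squares, and bars for exact 95% counting intervals; numbers beside each name are NCC reads at 28 hpf and at 16 hpf. Arrows mark intervals without a lower or an upper end, miR-137-5p and miR-128-3p have no NCC point because both libraries stood at or under 3 reads, and dashed lines mark 2-fold. NCC and non-NCC lie close together for miR-181a-5p and miR-181b-5p and far apart for miR-219-5p, miR-205-5p, miR-222a-3p and miR-92a-3p.

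Together, 4 of the 7 lower miRNAs (miR-21, miR-92a-3p and both arms of miR-222a) held 6.11% of the reads outside miR-430 at 28 hpf and 47.9% at 16 hpf. MiR-21, a widely expressed miRNA known to repress PDCD4, had 40 reads (2.26%) at 28 hpf and 49116 reads (26.2%) at 16 hpf. Its share was 11.6-fold lower, with a fold of 0.0864 (0.0617 to 0.118), and stayed lower at 0.293 of the earlier share with miR-430 in the total. In non-NCC its fold was 0.249, from 3.78% at 28 hpf and 15.2% at 16 hpf, and the ratio of both folds was 0.347 (0.248 to 0.473).

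MiR-222a, whose mammalian counterpart represses the cell cycle inhibitor CDKN1B and the receptor KIT, was lower in both arms of its hairpin. MiR-222a-3p had 7 reads (0.396%) at 28 hpf and 9027 reads (4.81%) at 16 hpf, a fold of 0.0823 (0.0331 to 0.170). MiR-222a-5p had 2 reads at 28 hpf and 1725 reads (0.919%) at 16 hpf, a fold of 0.123 (0.0149 to 0.445). The 3p arm remained lower with miR-430 in the total (0.279), and the 5p arm did not (0.417, 0.0505 to 1.51). Outside the crest the arms parted, with a fold of 1.46 for the 3p arm and 0.180 for the 5p arm. The ratio of the NCC fold to the non-NCC fold was 0.0564 (0.0226 to 0.116) for the 3p arm and 0.682 (0.0822 to 2.49) for the 5p arm. The neighbouring miR-221 had 1 read of its 3p arm at 28 hpf and 124 at 16 hpf, and none and 141 reads of its 5p arm, so its direction was not detectable at this depth.

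MiR-92a-3p, the most abundant product of the miR-17-92 cluster, which promotes proliferation in mammalian cells, had 59 reads (3.34%) at 28 hpf and 30066 reads (16.0%) at 16 hpf, a fold of 0.208 (0.159 to 0.269). In non-NCC its fold was 1.36, and the ratio of both was 0.153 (0.116 to 0.197). With miR-430 in the total its fold was 0.706 (0.538 to 0.912), past 1 in the same direction but short of 2-fold. Of 22 members tested of the cluster and its paralogs, miR-92a-3p alone was lower, near the 3.3% of all miRNAs outside miR-430. Only miR-92a-3p, miR-92b-3p and miR-25-3p had enough reads at 16 hpf to be counted as lower at this depth. The paralogs with at least 10 reads at 28 hpf were miR-92b-3p, with 33 and 4537 reads (fold 0.772, 0.531 to 1.09), and miR-25-3p, with 19 and 1584 reads (fold 1.27, 0.764 to 1.99). With miR-430 in the total both were counted as higher, at 2.62 and 4.32. The list summed to 6.28% at 28 hpf and 19.7% at 16 hpf, a fold of 0.319 (0.262 to 0.384) that turned to 1.08 with miR-430 in the total, and without miR-92a-3p the fold was 0.799 (0.596 to 1.05). The cluster mates miR-17a, miR-18a, miR-19a, miR-19b and miR-20a, which lie within 10 kb of the mir92a-1 gene, had no read at 28 hpf. The most abundant of them at 16 hpf, miR-17a-5p, had 184 reads there, too few to show a loss.

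MiR-454b, which shares its seed with miR-130 and miR-301, had no read at 28 hpf and 1704 reads (0.908%) at 16 hpf. At an equal share 16.1 reads were expected, and the interval of its fold reached up to 0.230, or 0.780 with miR-430 in the total. In non-NCC it had 1311 reads at 28 hpf and 86457 at 16 hpf, a fold of 0.479, and the ratio of both folds had an upper end of 0.481. The whole family of miR-130, miR-301 and miR-454 had no read at 28 hpf and 1963 at 16 hpf, with an upper end of 0.200 (0.677 with miR-430 in the total), and 9 of its 10 members tested were too sparse at 16 hpf to be counted alone. Most of the 1963 reads were the 1704 of miR-454b. Without miR-454b the upper end was 1.52, so a loss of the other members could not be seen.

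MiR-199-5p, a miRNA of mesenchyme and developing skeleton in mouse, had no read at 28 hpf and 792 reads (0.422%) at 16 hpf, and 7.46 reads were expected at 28 hpf. The interval of its fold reached up to 0.496, and to 1.68 with miR-430 in the total, where an equal share was not excluded. In non-NCC its fold was 0.881, from 309 reads at 28 hpf and 11074 at 16 hpf. The other arm, miR-199-3p, had no read and 468 reads, with 4.41 expected and an upper end of 0.840, which excluded an equal share but not a 2-fold difference. Its fold bounded with 3 reads was 0.680, short of the 0.5 limit, so it was not counted. With 0.5 reads added it was counted as lower. The counts of both arms at 16 hpf were multiples of their 3 precursor genes. Divided by 3, miR-199-5p had 264 reads at 16 hpf and 2.76 expected at 28 hpf, and it was no longer counted. MiR-30d, of a family known from the kidney in Xenopus, had 1 read at 28 hpf and 646 reads at 16 hpf, a fold of 0.164 (0.00415 to 0.919), lost with a 99% interval. Its family mate miR-30e-5p had 1 and 492 reads, with an interval up to 1.21.

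MiR-204-5p, miR-182-5p and miR-26a-5p each had at least 10 reads at 28 hpf and a fold within 2-fold in reads outside miR-430. The intervals of miR-204-5p and miR-26a-5p reached below 0.5, so a 2-fold loss was not excluded for either. MiR-204-5p, a miRNA of the pigmented epithelium of the eye that has also been linked to crest derivatives, had 18 reads (1.02%) at 28 hpf and 2486 reads (1.32%) at 16 hpf. Its fold of 0.768 (0.455 to 1.22) became 2.61 with miR-430 in the total, where it was counted as higher. In non-NCC its fold was 2.15, and the ratio of both was 0.358 (0.211 to 0.568). MiR-182-5p, of the sensory cluster of miR-96, miR-182 and miR-183, had 15 and 1589 reads, a fold of 1.0 (0.559 to 1.66), and was counted as higher, at 3.40, with miR-430 in the total. MiR-26a-5p, a widely expressed miRNA, had 15 and 2760 reads, a fold of 0.577 (0.322 to 0.953), and was counted as lower only when scaled by TMM or by the median of ratios.

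The shallow library at 28 hpf could show few losses. Of the 211 miRNAs outside miR-430 with reads at 16 hpf, 164 had none at 28 hpf, but 154 of these were so rare at 16 hpf that less than 1 read was expected. At least 319 reads at 16 hpf were needed for 3 expected reads at 28 hpf. This was met by 27 miRNAs, and 23 of them were seen. The 4 without a read were miR-454b, miR-199-5p, miR-146a and miR-199-3p, the losses that the library could show. Only miR-454b and miR-199-5p had more than 6 reads expected, the least at which the rule can count a 2-fold loss. MiR-146a, an immune-regulated miRNA in mammals, had 631 reads at 16 hpf and 5.95 expected, and the interval of its fold reached up to 0.622. Its fold bounded with 3 reads was 0.505, just short of the 0.5 limit, so it was not counted. It was counted as lower under TMM, the median of ratios or 0.5 reads added. With miR-430 kept in the total, 20 miRNAs at 16 hpf reached 3 expected reads, and the 2 without a read at 28 hpf were miR-454b and miR-430b-5p, neither of which had more than 6.

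Reads were also summed in classes by the number expected at 28 hpf. Shares sum to a fixed total and the first class held 176800 of the 187650 reads at 16 hpf, so its fold is largely set by the scaling and is given as a description. The 17 miRNAs with at least 10 expected reads summed to 1648 reads at 28 hpf, against 1666 expected (fold 0.989, 0.942 to 1.04). The 10 with 3 to under 10 expected had 48 reads against 52.1 expected (fold 0.920, 0.678 to 1.22). The 15 with 1 to under 3 had 35 reads against 27.7 (fold 1.26, 0.877 to 1.76). The 169 rarest had 35 reads against 22.3 (fold 1.57, 1.09 to 2.19), carried by 15 miRNAs. The classes were set by the same counts at 16 hpf that enter the folds, and counts were not divided by precursor genes. These folds are therefore descriptions too, and the last does not establish a rise of rare miRNAs.

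The miRNAs that the study named for other reasons were mostly below what the later library can resolve. MiR-133a-3p, a muscle miRNA in vertebrates, had 2 reads (0.113%) at 28 hpf and 64 reads (0.0341%) at 16 hpf, a fold of 3.32 (0.393 to 12.5), and was counted as higher, at 11.2 (1.33 to 42.3), with miR-430 in the total. In non-NCC its fold was 35.5, from 758 reads at 28 hpf and 674 at 16 hpf, and the ratio of the NCC fold to the non-NCC fold was 0.0934 (0.0110 to 0.354). MiR-338-3p had no read at 28 hpf and 1 read at 16 hpf, so at this depth nothing can be said of its direction. MiR-145-5p, known from smooth muscle, and the sensory miR-96-5p each had no read at 28 hpf and 1 at 16 hpf. MiR-16b had 2 and 186 reads (fold 1.14, 0.137 to 4.18), and the teleost miR-462 had 2 and 70 reads (fold 3.03, 0.360 to 11.4). With miR-430 in the total miR-462 was counted as higher, at 10.3 (1.22 to 38.6).

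Marker miRNAs of other cell types that the sort could hold were also summed. Muscle miRNAs had 2 reads at 28 hpf and 83 at 16 hpf, all of miR-133a-3p, miR-206-3p and miR-133b-5p. The rows of miR-1 and miR-499 had no read in either NCC library. Both reads at 28 hpf were from miR-133a-3p and none from miR-206-3p. The share of the muscle miRNAs was 0.113% and 0.0442% (fold 2.56, 0.305 to 9.53, and 8.67 with miR-430 in the total). Blood and vascular miRNAs had none at 28 hpf in 11 members tested, including miR-451, miR-144-5p, miR-126a-3p and miR-223, against 723 reads at 16 hpf, an upper end of 0.543, or 1.84 with miR-430 in the total. Most of the 723 reads were the 631 of miR-146a. Without miR-146a the upper end was 4.34, so the other members were too sparse for a loss to be seen. Endodermal organ miRNAs had 1 read, of miR-192, and 256 reads (fold 0.415, 0.0105 to 2.33), with miR-122 and miR-375 at 0 at 28 hpf. Without miR-192 the upper end was 5.66, so a loss of the other endodermal members could not be seen. Among epithelial markers, no miRNA other than miR-205-5p was counted. The part of such cells in the stage differences of the neuronal and epithelial miRNAs was not tested. Mesenchyme and skeletal miRNAs had no read in any of 10 members at 28 hpf, against 1382 reads at 16 hpf. The upper end was 0.284 (0.962 with miR-430 in the total), whereas in non-NCC their fold was 1.12. Most of the 1382 reads were the 792 of miR-199-5p and the 468 of miR-199-3p, counts not divided here by their precursor genes. Without miR-199-5p the upper end was 0.666.

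The remaining lists stood within 2-fold or on few reads when miR-430 was left out of the total. The sensory cluster summed to 17 reads at 28 hpf and 1978 at 16 hpf (fold 0.912, 0.530 to 1.46), and the miR-204 rows to 18 and 2489 reads (fold 0.768, 0.454 to 1.22). With miR-430 in the total these folds were 3.09 (1.80 to 4.97) and 2.60 (1.54 to 4.12). The widely expressed miR-26, miR-101, miR-103, miR-107 and miR-148 rows summed to 17 and 2924 reads (fold 0.617, 0.359 to 0.990, which turned to 2.09, 1.22 to 3.36, with miR-430 in the total), with none of 10 members counted outside miR-430. The miR-15 and miR-16 family had 5 and 600 reads (fold 0.884, 0.286 to 2.08), and the miR-462 and miR-731 cluster had 2 and 75 reads (fold 2.83, 0.337 to 10.6, and 9.60 with miR-430 in the total). The miR-30 family had 5 reads at 28 hpf and 1531 at 16 hpf, a fold of 0.347 (0.112 to 0.811) that turned to 1.18 with miR-430 in the total. Of its 6 members miR-30c-3p was higher and miR-30d was lower, against 7.08% higher and 3.3% lower of all miRNAs outside miR-430.

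**Figure D3:**
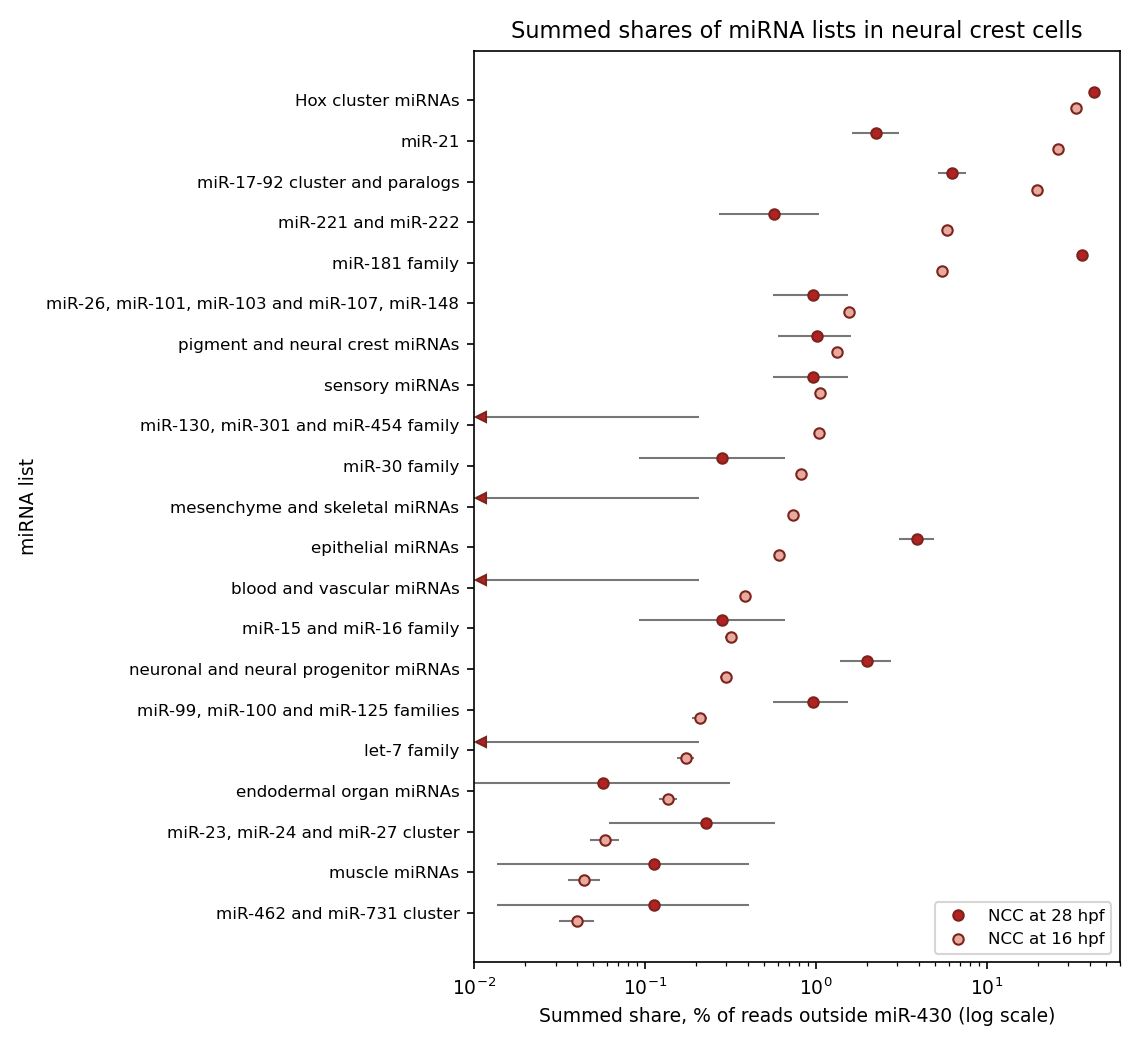
Summed share of 21 miRNA lists in NCC at 28 hpf (dark points) and at 16 hpf (pale points), in % of reads outside miR-430 on a log scale, with exact 95% intervals and arrows for lists without a read at 28 hpf. Intervals take every count as a separate read, without division by the number of precursor genes. The miR-181 family (36.0% and 5.45%) and the neuronal miRNAs (1.98% and 0.298%) lie further right at 28 hpf, miR-21 (2.26% and 26.2%) further left, and the miR-130, mesenchyme, blood and let-7 lists had no read at 28 hpf.

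The miR-430 family itself took 72.8% of all NCC reads at 28 hpf (71.7 to 73.9) and 92.0% at 16 hpf (91.9 to 92.0). In non-NCC it took 66.7% at 28 hpf and 91.7% at 16 hpf. As a share of all reads, the stage difference within the family in NCC lay in miR-430a-3p and not in miR-430b-3p. This depends on the denominator, since the reads outside miR-430 were 27.2% of the NCC library at 28 hpf and 8.02% at 16 hpf. Set against those reads, miR-430b-3p was lower at 28 hpf too. MiR-430a-3p had 756 reads (11.6% of all reads) at 28 hpf and 727184 reads (31.1%) at 16 hpf, whereas miR-430b-3p had 3960 reads (60.9%) at 28 hpf and 1415076 reads (60.5%) at 16 hpf. The number of miR-430b-3p reads per miR-430a-3p read was thus 5.24 (4.84 to 5.67) at 28 hpf and 1.95 at 16 hpf. In non-NCC this number went the other way, 1.83 at 28 hpf and 4.0 at 16 hpf. MiR-430c-3p had 18 reads at 28 hpf and 9558 at 16 hpf, both multiples of its 18 precursor genes. The 756 reads of miR-430a-3p at 28 hpf were also a multiple of its 18 precursor genes, whereas its count at 16 hpf was not. The intervals given here take every count as a separate read. The members are near-identical and come from many tandem copies, so the assignment of reads between them is uncertain.

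**Figure D4:**
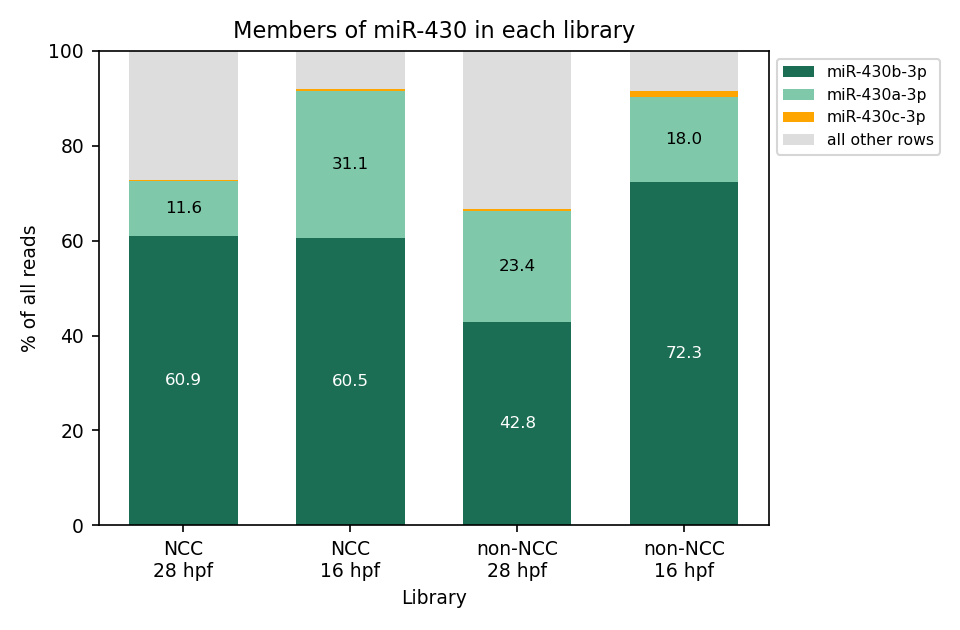
Share of all reads taken by miR-430b-3p, miR-430a-3p, miR-430c-3p and all other rows in each of the 4 libraries, as stacked bars from 0 to 100%. In NCC the miR-430b-3p share was 60.9% at 28 hpf and 60.5% at 16 hpf and that of miR-430a-3p was 11.6% and 31.1%, while in non-NCC the miR-430b-3p share was 42.8% and 72.3%.

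Read counts of miRNAs with several precursor genes call for care. Of 22 such miRNAs with reads in NCC at 28 hpf, miR-430 included, 13 had NCC counts that were whole multiples of the gene number at both stages, as did 9 of the 13 that were counted as higher or lower. How reads that match several precursors were counted is not given in the sources used here. Whether a read was counted once for each gene was not tested, and the intervals above take every count as a separate read. Dividing those counts by the gene number left 12 miRNAs higher, without miR-9-5p, miR-125b-5p and miR-125a, and 7 lower, with miR-146a in place of miR-199-5p. Among these 12, miR-128-3p and miR-137-5p were left with 1 read each at 28 hpf. MiR-24 was not divided, because its count at 16 hpf was not a multiple of its gene number.

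The stage difference in NCC was set beside that in non-NCC for all 22 counted miRNAs. For 15 of them the interval of the ratio of both folds excluded 1, and for 7 it included 1 (miR-181a-2-3p, miR-181b-5p, miR-125b-5p, miR-30c-3p, miR-125a, miR-222a-5p and miR-30d). The 15 include miR-128-3p, miR-137-5p and miR-24, which had at most 4 reads in either NCC library. These ratios used counts not divided by the number of precursor genes. Among the miRNAs with at least 10 reads in each NCC library, the NCC fold exceeded the non-NCC fold by most for miR-205-5p, miR-100-5p, miR-10d-5p and miR-184. It fell short by most for miR-92b-3p and miR-92a-3p, with ratios of 0.144 (0.0989 to 0.203) and 0.153 (0.116 to 0.197), followed by miR-21. MiR-92b-3p was not counted in NCC, and its fold in non-NCC was 5.36.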

How the data were processed

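Small RNA of FACS-sorted zebrafish cells was sequenced, with 1 library for each population at each stage. The study's methods name TRIzol and paired-end reads, the sample labels a miRNeasy kit and single-end reads. Per the submitters' processing notes, Bowtie, HTSeq and DESeq2 and the build GRCz11 were used, with versions and settings not given in the sources used here. The authors deposited 1 table per stage of normalized counts for 372 miRNAs, a signal that is never negative. Division by the smallest value above 0 in a library gave whole numbers for 100% of its values (tolerance 1e-06, largest distance 4.02e-07), and that value was taken as 1 read. Shares, folds and exact Clopper-Pearson 95% intervals were computed from the recovered reads, and the ratio of folds with an exact conditional interval on 4 counts. With 1 library a side no test was made.

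The comparison, its members and the 22 miRNA lists were chosen with earlier results of these data known. Named miRNAs were the 6 most abundant in each NCC library, the 8 highest and 8 lowest counted folds, the 8 missing at 28 hpf with most reads expected, those the study names in its sequencing results and up to 4 per list, 87 in all. Others, such as miR-184, miR-196b and miR-124-3p, were named after their values were seen. Alternatives changed the denominator, the scaling (edgeR 4.0.16 TMM, DESeq2 1.42.0 size factors), the threshold, the read minimum and the handling of duplicate rows and precursor copies. Precursor genes came from the RefSeq gene table of GRCz12tu, which matched 370 of 372 names and was used for gene numbers and neighbours only. Mature sequences were not used here, so no sums by seed were made. The code was tested on simulated data. Python 3.11.15, numpy 2.4.6, pandas 2.3.3, scipy 1.17.1, matplotlib 3.10.9 and R 4.3.3 were used.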

Additional observations from a re-analysis of the deposited data

Results flagged for a closer look

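MiR-219-5p was flagged for the size of the ratio of its NCC fold to its non-NCC fold. Its stage difference ran in opposite directions in the crest and outside it, as did those of miR-205-5p, miR-100-5p, miR-92a-3p and miR-222a-3p, among others. In NCC, miR-219-5p had 9 reads at 28 hpf and 6 reads at 16 hpf, a fold of 159 (50.6 to 544) in share. In non-NCC it had 180 reads at 28 hpf and 15327 reads at 16 hpf, a fold of 0.371 (0.318 to 0.430). The NCC fold over the non-NCC fold was 429 (134 to 1477) by the exact conditional interval on the 4 read counts, which covers counting error between single libraries only. With the NCC counts divided by its 3 precursor genes, the difference in NCC rested on 3 reads at 28 hpf and 2 reads at 16 hpf.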

How the results depend on the processing

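No paired analysis was possible because each population and stage is 1 library, and for the same reason no replicate could be left out. The 15 higher and 7 lower miRNAs became 28 and 2 with miR-430 in the total and 7 and 2 with at least 10 reads in both libraries. In every other alternative run, the counts were 12 to 15 higher and 6 to 10 lower. Of the 15 higher miRNAs, 14 remained under the median of ratios (10 lower), 13 at 4-fold and 12 with a 99% interval, and all 15 under TMM (10 lower) and with 0.5 reads added (9 lower). An alternative chosen after seeing the data divided counts where both NCC counts were multiples of the gene number. It left 12 higher, of which miR-128-3p and miR-137-5p had 1 read each at 28 hpf. The 4 losses the library could show became 2 with miR-430 in the total, 1 at 10 expected reads and 2 with divided counts. With miR-430 in the total, the folds turned to 3.11 for miR-10c-5p, 2.61 for miR-204-5p, 2.62 for miR-92b-3p, 1.08 for the miR-17-92 list, 1.18 for the miR-30 list, 3.09 for the sensory list, 2.60 for the miR-204 list and 2.09 for the miR-26 list, by the common factor of 3.39. The miR-430 share at 16 hpf was 91.9% on 3p rows alone. Depth at 28 hpf limits every statement on miRNAs under 319 reads at 16 hpf.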
